A study of Mus musculus with 9 samples.

Results

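The genes described here are 7 markers of dividing progenitors and neuronal precursors of the olfactory lineage: Neurog1, Neurod1, Insm1, Kit, Ezh2, Mki67 and Top2a. They were chosen by name, and all 7 were found among the 24421 gene rows of the count table. They were measured in the odour-sensing lining of the nose, the main olfactory epithelium (MOE), of mice labelled C57BL/6 at postnatal day 14. The line carries a germline CRISPR-Cas9 deletion that removes TAAR enhancer 1, a regulatory element located between Taar1 and Taar2 and acting on trace amine-associated receptor (Taar) genes. RNA-seq of whole MOE was made from wild-type (WT), heterozygous (het, TAAR enhancer 1 +/-) and homozygous (homo, TAAR enhancer 1 -/-) littermates, with 3 libraries per genotype. No cell type was sorted, so fewer cells of a type and less RNA per cell cannot be told apart. The study's reporting summary gives a mixed strain background and older mice for this line, and the disagreement could not be settled here.

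Olfactory sensory neurons are replaced throughout life from globose basal cells, the dividing cells at the base of the epithelium. Globose basal cells pass from stem-like states through transit-amplifying divisions to immediate neuronal precursors, which leave the cell cycle and become immature and then mature neurons. Kit, a receptor tyrosine kinase bound by stem cell factor, is carried by many globose basal cells. Neurog1 and Neurod1 are basic helix-loop-helix transcription factors that act in succession in neuronal precursors, and Insm1 is a zinc finger factor expressed in late progenitors and nascent neurons. Mki67, a coat protein of mitotic chromosomes, and Top2a, a DNA topoisomerase, are made mainly in cycling cells. Ezh2 is the catalytic subunit of Polycomb repressive complex 2, which methylates histone H3 at lysine 27.

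Gene counts summed to between 24583906 and 32631951 reads in a library, and each progenitor gene had between 505 and 6888 reads in a library. The labels held for the Taar genes beside the deletion: Taar2 had 65, 118 and 72 reads in the WT libraries, 65, 51 and 47 in the het libraries, and 1, 1 and 0 in the homo libraries. Vomeronasal receptor genes, which mark a second nasal sense organ, added up to 67.5 CPM (read counts scaled to a common library size) in het replicate 1, 120 CPM in homo replicate 2 and 69.7 CPM in homo replicate 3. In the other libraries they summed to between 14.6 and 17.4 CPM. These 3 libraries stood apart. Values without them, which leave 1 homo library that is then assumed to vary like the other groups, are given beside part of the results. Without them some named differences shrank and others did not. Replicates were distinct beyond counting error (chi-square divided by its degrees of freedom at least 4.34 for each pair).

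Few genes of any kind were called between genotypes, so a count of 0 among these 7 says little about them. By edgeR's quasi-likelihood test with Benjamini-Hochberg adjustment over 20213 genes, 0 of 7 passed an adjusted p of 0.05 between homo and WT mice, where 0.0495% of all genes passed. Likewise 0 of 7 passed between het and WT mice (0.00495% of all genes), 0 of 7 between homo and het mice (0.114%) and 0 of 7 for any difference among the genotypes (0.0643%). These shares of all genes moved with single libraries: without het replicate 3, edgeR called 190 genes between homo and het mice in place of 23 and 70 for any difference in place of 13. At an unadjusted p under 0.05, 2 of 7 passed between homo and WT mice, against 9.26% of all genes. These were Insm1, higher, and Mki67, lower. None passed between het and WT mice, against 3.25% of all genes. Insm1 and Top2a passed between homo and het mice, against 10.4%. DESeq2, the other tool run, called Insm1 alone in the comparisons of homo mice with WT mice and with het mice. Its default settings called 0.769% and 1.2% of the genes to which it gave an adjusted p in those comparisons.

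**Figure D1:**
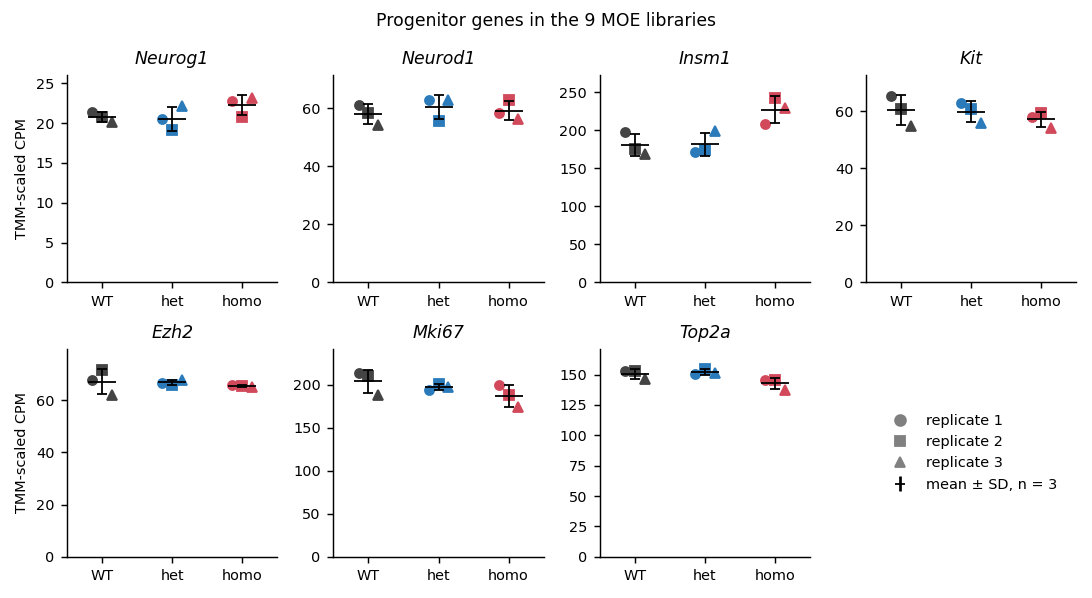
Each panel plots TMM-scaled counts (CPM, linear axis from 0) of 1 progenitor gene in the 3 WT, 3 het and 3 homo libraries, with bars for the mean ± SD. Only Insm1 has homo libraries that all lie above the WT and het libraries, at 208 to 243 CPM against at most 199 CPM.

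Insm1 lies on the plus strand of chromosome 2 (GRCm38, chr2:146221921-146225020) and has 1 exon. Its TMM-scaled CPM was 197, 176 and 169 in the WT libraries, 172, 174 and 199 in the het libraries, and 208, 243 and 230 in the homo libraries. All homo libraries were above all WT and het libraries, while WT and het libraries overlapped. Insm1 was 1.25 times as high in homo as in WT mice, with a log2 fold change of 0.33 ± 0.07 (SE, n = 3 per genotype; edgeR adjusted p = 0.221). The 95% confidence interval of this difference ran from 12.9 to 39.3%. It ranked 29 of all genes tested by p, and its unadjusted edgeR p was 0.000337. Against het mice the log2 fold change was 0.32 ± 0.07 (SE; edgeR adjusted p = 0.116). Between het and WT mice Insm1 differed by 0.497%, with an interval from -9.54 to 11.6%.

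Whether the Insm1 difference passed the threshold depended on the test. DESeq2 with default settings gave an adjusted p of 0.00423 between homo and WT mice and 0.00165 between homo and het mice, at log2 fold changes of 0.33 and 0.32. On simulated counts DESeq2 made a larger share of false calls than edgeR. Those counts used edgeR's own estimates of spread and larger differences than that of Insm1. Without the 3 libraries with many vomeronasal receptor reads, the log2 fold change to WT mice was 0.20 (edgeR adjusted p = 0.925). With the vomeronasal receptor level as a covariate it was 0.29 (edgeR adjusted p = 0.683). Het replicate 1, 1 of these 3 libraries, had 172 CPM of Insm1, inside the WT range of 169 to 197 CPM. Homo replicate 1, which is not among them, had 208 CPM, above all WT and het libraries. The part of vomeronasal tissue in the Insm1 difference was not tested further.

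Insm1 was also set against other progenitor genes of the same library, a comparison chosen after seeing the data. The ratio of Insm1 to Neurod1 was 3.23, 3.02 and 3.12 in the WT libraries, 2.73, 3.13 and 3.18 in the het libraries, and 3.58, 3.87 and 4.07 in the homo libraries. The homo libraries did not overlap with the others, and the mean ratio was 1.23 times that of WT mice (two-sided exact permutation p = 0.1, the smallest that 3 against 3 libraries allow). The ratio to Mki67 was 1.38 times as high in homo as in WT mice and the ratio to Top2a was 1.33 times as high, each without overlap (exact permutation p = 0.1). Mki67 and Top2a were themselves 8.34% and 5.37% lower in homo than in WT mice by point estimate. Their lower values raised these ratios above the 1.25 times of Insm1 itself. The homo libraries already stood apart in Insm1 CPM, so the lack of overlap in these ratios adds no support. The ratio to Neurog1 was 1.18 times as high, and there homo replicate 1, at 9.15, lay below WT replicate 1, at 9.23 (exact permutation p = 0.2). Homo replicates 2 and 3, which were rich in vomeronasal receptor reads, had higher values than homo replicate 1 in each of these ratios. Het replicate 1, also rich in such reads, had the lowest ratio to Neurod1 of any library, at 2.73. Its ratios to Mki67, Top2a and Neurog1 lay below those of all homo libraries. The part of vomeronasal tissue in these ratios was not tested. Homo replicate 1 alone was at 1.14 times the WT mean in the ratio to Neurod1, 1.18 times in that to Mki67, 1.19 times in that to Top2a and 1.05 times in that to Neurog1.

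**Figure D2:**
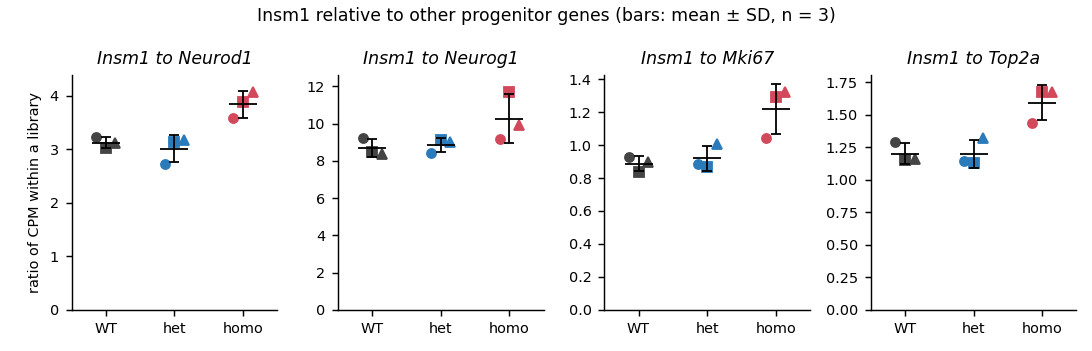
Each panel plots the ratio of Insm1 CPM to the CPM of another progenitor gene within a library (linear axis from 0), for 3 libraries per genotype with the mean ± SD. The homo libraries lie above all WT libraries in the ratios to Neurod1, Mki67 and Top2a, and overlap with them in the ratio to Neurog1.

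The proneural factors Neurog1 and Neurod1 had libraries that overlapped between genotypes. Neurog1 (chr13:56250478-56252163, minus strand, 1 exon) was measured at 21.4, 20.8 and 20.2 CPM in WT, 20.4, 19.1 and 22.1 CPM in het, and 22.8, 20.8 and 23.1 CPM in homo libraries. Homo replicates 1 and 3 lay above all WT and het libraries, and homo replicate 2 lay among them. The homo value of Neurog1 was 6.96% above WT, with an interval from -4.58 to 19.9% (edgeR adjusted p = 0.757). Neurod1 (chr2:79452521-79456751, minus strand, 2 exons) was measured at 61.1, 58.2 and 54.2 CPM in WT, 62.9, 55.6 and 62.7 CPM in het, and 58.2, 62.7 and 56.4 CPM in homo libraries. It differed by 2.12% between homo and WT mice, with an interval from -6.86 to 11.97% (edgeR adjusted p = 0.925). Neurod1 overlaps Cerkl on its own strand and a noncoding gene on the other strand, and the strand setting of the counting is not given in the sources used here.

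The receptor Kit (chr5:75574916-75656722, plus strand, 21 exons in its longest transcript) was measured at 65.5, 60.8 and 55.0 CPM in WT libraries. It was at 63.0, 60.9 and 55.8 CPM in het and 58.0, 59.5 and 54.1 CPM in homo libraries, and the genotypes overlapped. The homo value lay 5.40% below WT, with an interval from -14.2 to 4.29% (edgeR adjusted p = 0.765). Kit also marks mast cells and melanocytes. The summed level of 6 mast cell genes was at most 1.41 CPM and that of 5 melanocyte genes at most 3.37 CPM in any library. The part of these cells in the Kit level was not tested.

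Ezh2 (chr6:47530139-47595341, minus strand, 20 exons in its longest transcript) was the steadiest of the genes within homo and het mice. It was measured at 67.8, 71.6 and 61.9 CPM in WT, 66.8, 66.0 and 67.6 CPM in het, and 65.8, 65.5 and 64.9 CPM in homo libraries. The homo libraries all lay below the het libraries and inside the WT range. The difference between homo and WT mice was -2.59%, with an interval from -9.78 to 5.18% (edgeR adjusted p = 0.887). Ezh2 overlaps a noncoding gene on the other strand.

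The cycling-cell genes Mki67 and Top2a had their lowest means in homo mice, by small amounts, as did Kit and Ezh2. Mki67 (chr7:135689784-135716361, minus strand, 14 exons) was measured at 213, 210 and 188 CPM in WT, 194, 201 and 198 CPM in het, and 199, 188 and 174 CPM in homo libraries. WT replicate 3 fell among the homo libraries, and the homo value was 8.34% below WT by point estimate (log2 fold change -0.13 ± 0.06 SE; edgeR unadjusted p = 0.0444, adjusted p = 0.528). The interval of the Mki67 difference ran from -15.8 to -0.246%. Without the 3 libraries rich in vomeronasal receptor reads its log2 fold change was -0.03 (edgeR adjusted p = 0.972). Top2a (chr11:98992943-99024189, minus strand, 36 exons in its longest transcript) was measured at 153, 153 and 146 CPM in WT, 151, 155 and 151 CPM in het, and 145, 145 and 138 CPM in homo libraries. All homo libraries lay below all others, WT replicate 3 by under 1 CPM. The log2 fold change was -0.08 ± 0.04 (SE) against WT mice (edgeR adjusted p = 0.616) and -0.09 ± 0.04 (SE) against het mice (edgeR adjusted p = 0.475). The Top2a interval ran from -11.2 to 0.86% against WT mice and from -12.02 to -0.0555% against het mice. Without those 3 libraries the log2 fold changes were -0.05 and -0.08.

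Groups without overlap were common across the transcriptome. Between homo and WT mice, Insm1 and Top2a were the 2 of 7 progenitor genes without overlap, against 15.4% of all genes tested. Between homo and het mice these were Insm1, Ezh2 and Top2a, against 14.1%. Between het and WT mice there were 0 of 7, against 8.68%.

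**Figure D3:**
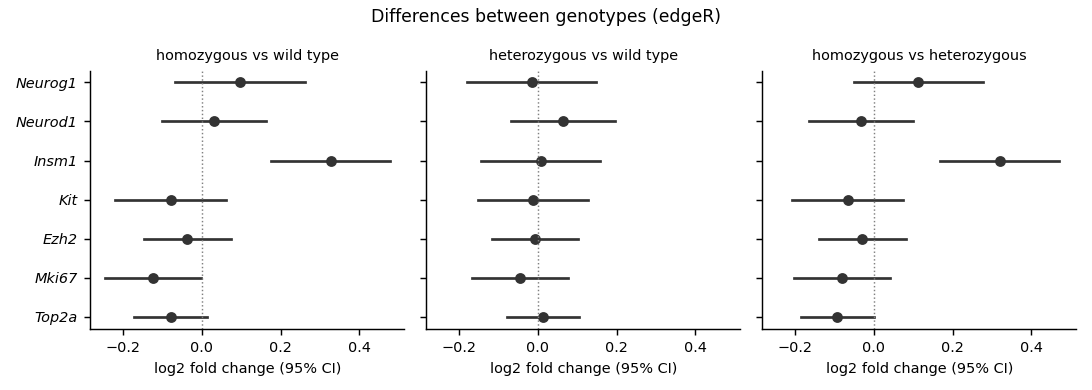
Points are edgeR log2 fold changes of the 7 progenitor genes in the 3 comparisons of genotypes, and lines are 95% confidence intervals before any adjustment. The Insm1 interval lies above 0 in both comparisons of homo mice, at log2 fold changes of 0.33 and 0.32. Those of Mki67 between homo and WT mice and of Top2a between homo and het mice lie just below 0, and all intervals between het and WT mice include 0.

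Levels of different genes were set against each other per length, as CPM per kilobase of annotated exon (GENCODE M21). Insm1 was the highest, with a mean of 63.4 CPM per kilobase over the 9 libraries, a level above that of 97.4% of 19427 genes with a length. Neurod1 followed at 21.7 and Mki67 at 19.5 CPM per kilobase, and their ranges over libraries overlapped. Top2a was at 16.5, Neurog1 at 12.6, Ezh2 at 9.95 and Kit at 6.64 CPM per kilobase, and none of these neighbours overlapped. This order depends on the length used. With the longest transcript in place of all exons Top2a was at 28.4, Ezh2 at 23.8 and Kit at 11.3 CPM per kilobase.

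Several close relatives of the progenitor genes had low levels. Neurog2 and Neurog3 had too few reads to be tested. Neurod2, Neurod4 and Neurod6, Insm2 and the Kit relative Flt3 had mean levels of at most 0.341 CPM per kilobase. Ezh1, the other catalytic subunit of Polycomb repressive complex 2, was at 9.47 CPM per kilobase, next to Ezh2. Top2b, the relative of Top2a, was at 22.6 CPM per kilobase. The receptor kinases Pdgfra, Pdgfrb and Csf1r, structural relatives of Kit made by connective tissue and macrophages, were at 6.25, 14.3 and 9.03 CPM per kilobase.

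Mki67 and Top2a varied together from library to library. Over the 9 libraries Pearson's r of their log2 CPM was 0.87 (exact permutation p = 0.0025) and Spearman's rho was 0.83 (exact permutation p = 0.00827). Over the 21 pairs of progenitor genes the adjusted values were 0.0526 and 0.145, so this pair, the closest, did not pass the correction and neither did any other. With genotype means subtracted r was 0.93. Without the 2 libraries farthest from the median of Mki67 it was 0.70, and without the 3 libraries rich in vomeronasal receptor reads it was 0.66. All such values share the library and its scaling. Kit correlated with Mki67 at r = 0.72 (rho = 0.68) and with Top2a at r = 0.68 (rho = 0.63), with exact permutation p of 0.0256 and 0.0395 and adjusted values of 0.215 each. Without the 2 farthest libraries on Kit r was 0.35 and 0.46, without the 3 libraries rich in vomeronasal receptor reads 0.90 and 0.64, and with genotype means subtracted 0.67 and 0.70. By rank Ezh2 was closer to both than Kit was, with rho = 0.80 for Mki67 (r = 0.66) and 0.73 for Top2a (r = 0.56). Exact permutation p of these rho values was 0.0138 and 0.0311, adjusted 0.145 and 0.206. Neurog1 and Insm1 had rho = 0.70 (r = 0.63, exact permutation p of rho 0.0433, adjusted 0.206). With genotype means subtracted r of this pair was 0.31, and without the 2 farthest libraries on Neurog1 it was 0.45. Without the 3 libraries rich in vomeronasal receptor reads it was 0.89. Insm1 and Top2a had r = -0.65 (rho = -0.57, exact permutation p = 0.0564, adjusted 0.215), and r was 0.11 once genotype means were subtracted.

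**Figure D4:**
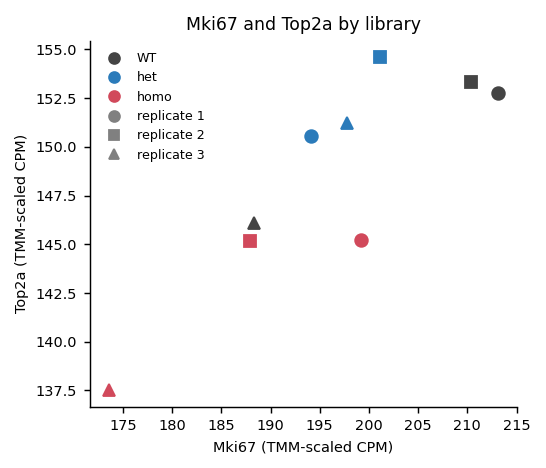
Each point is a library, with Mki67 on the horizontal and Top2a on the vertical axis (TMM-scaled CPM; neither axis starts at 0), coloured by genotype and shaped by replicate. Homo replicate 3 is the lowest on both axes, at 174 and 138 CPM, and Pearson's r over the 9 libraries is 0.87.

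Mki67 and Top2a were the most closely correlated pair, short of the corrected threshold, and their promoters are shown, from RefSeq for GRCm38.p6. Whether the promoters have a part in the correlation was not tested. Of the 7 progenitor genes 6 had an entry in the promoter table, and Insm1 had none. Each line gives the 250 bases before the RefSeq start, 5′ to 3′ on the gene's strand. Capitals mark CCAAT, the box bound by the factor NF-Y, and TTTGAA or TTCGAA, the core of the cell cycle homology region, each on either strand. No marked stretches overlap.
Mki67 (chr7:135716380-135716629, minus strand): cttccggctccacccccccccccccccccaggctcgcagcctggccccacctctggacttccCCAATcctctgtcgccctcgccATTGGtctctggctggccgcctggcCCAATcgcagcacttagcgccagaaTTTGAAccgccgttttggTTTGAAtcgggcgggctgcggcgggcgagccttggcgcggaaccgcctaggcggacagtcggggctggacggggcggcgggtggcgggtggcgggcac
Top2a (chr11:99024190-99024439, minus strand): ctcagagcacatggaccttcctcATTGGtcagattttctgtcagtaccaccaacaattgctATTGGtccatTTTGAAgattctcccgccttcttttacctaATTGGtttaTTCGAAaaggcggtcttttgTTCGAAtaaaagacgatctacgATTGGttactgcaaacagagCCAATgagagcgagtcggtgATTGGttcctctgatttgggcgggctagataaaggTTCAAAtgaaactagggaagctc
The Mki67 window held 3 CCAAT and 2 TTTGAA matches. The Top2a window held 6 CCAAT, 2 TTTGAA and 2 TTCGAA matches. Of 27025 promoter windows of the same length, 34.5% held CCAAT, 16.3% TTTGAA, 1.34% TTCGAA and 5.73% both CCAAT and TTTGAA. Ezh2 had 3 CCAAT matches and Neurog1 had 1, while Neurod1 and Kit had 0, and none of these windows held TTTGAA or TTCGAA. A match describes letters and not a bound site.

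The genes most like each progenitor gene were taken by Pearson's r of log2 CPM over the 9 libraries, among 16167 genes with a mean of at least 1 CPM. For Insm1 these were Hnrnpa0, an RNA-binding protein (r = 0.97), Mreg (r = 0.97) and Calb2, the calcium-binding protein calretinin (r = 0.97). For Top2a they were Bod1l (r = 0.96), 5530601H04Rik (r = 0.96) and Cenpe, a mitotic kinesin (r = 0.96). For Kit they included Traf2 (r = 0.94) and Zfp518b (r = 0.94). Neurog1 was near Cchcr1 (r = 0.98) and Acaa1a, Neurod1 was nearest to Zfp59 (r = 0.94), Pqbp1 and Rad23b, and Ezh2 to Tppp (r = 0.92), Apoc1 and Socs6. Mki67 was nearest to the odorant receptor gene Olfr845 (r = 0.96), 1700049G17Rik and Olfr594. Each was picked as the nearest of many genes over few libraries, so these values are a description with no test.

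Lists of genes that act with the progenitor genes were examined next. Of their 117 genes, those with enough reads were tested, and edgeR called 0 of them in any pair of genotypes. Among 15 other factors of the neuronal lineage, 3 had an unadjusted edgeR p under 0.05 between homo and WT mice, all higher: Nhlh1, Lhx2 and Ebf3. Over all genes tested 9.26% had such a p, 49.8% had a positive log2 fold change and the median was -0.00057. Of the list, 10 of 15 were positive, with a median of 0.05. Nhlh1, a helix-loop-helix factor of nascent neurons, was at 153, 147 and 133 CPM in WT and 157, 166 and 165 CPM in homo libraries (log2 fold change 0.17 ± 0.06 SE; edgeR adjusted p = 0.423). Without the 3 libraries rich in vomeronasal receptor reads the log2 fold changes were 0.12 for Nhlh1, 0.08 for Lhx2 and 0.05 for Ebf3.

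Cell cycle lists gave no call between homo and WT mice in either phase. Of 19 S phase genes, 0 had an unadjusted p under 0.05, against 9.26% of all genes, 12 were positive and the median log2 fold change was 0.04. The smallest p was that of Gins2, a replication helicase subunit, at 5.3, 5.9 and 5.7 CPM in WT and 6.8, 5.8 and 7.8 CPM in homo libraries. Of 22 G2/M phase genes, 1 had an unadjusted p under 0.05, 9 were positive and the median was -0.03. That gene, the mitotic kinesin Kif23, was at 23.1, 25.0 and 21.1 CPM in WT and 21.6, 17.8 and 18.3 CPM in homo libraries (log2 fold change -0.26 ± 0.09 SE; edgeR adjusted p = 0.432). Without the 3 libraries rich in vomeronasal receptor reads the log2 fold change was -0.10 for Kif23. That of Gins2 was 0.27 with and without them. Of 11 genes of cell cycle exit, the smallest p was that of the retinoblastoma relative Rbl1. It was lower by point estimate (-0.18 ± 0.07 SE on the log2 scale, edgeR adjusted p = 0.431), and at -0.13 without those 3 libraries. The list's median log2 fold change was 0.00073.

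The partners of Ezh2, Insm1 and Kit gave values of similar size. Of 10 Polycomb genes Eed, which binds the methylated histone, had the smallest p, at 60.1, 58.9 and 59.7 CPM in WT and 63.2, 65.0 and 63.8 CPM in homo libraries (edgeR adjusted p = 0.491), and 7 of the 10 were positive. Insm1 recruits the CoREST histone demethylase complex, and of 8 genes of that list 7 had positive log2 fold changes, with a median of 0.06, against 49.8% positive over all genes. Its smallest p was that of Hmg20b (log2 fold change 0.12 ± 0.05 SE; edgeR adjusted p = 0.48), which was at 0.05 without the 3 libraries rich in vomeronasal receptor reads. Of 9 genes of Kit signalling, the smallest p was that of Pik3r1, a regulatory subunit of phosphoinositide 3-kinase (log2 fold change -0.15 ± 0.06 SE; edgeR adjusted p = 0.451), 3 of the 9 were positive and the median was -0.05. Of 12 Notch pathway genes, which hold precursors back from differentiation, the effector Hes1 was at 30.2, 28.5 and 29.7 CPM in WT and 32.1, 34.3 and 34.2 CPM in homo libraries (log2 fold change 0.19 ± 0.06 SE; edgeR adjusted p = 0.397). Without those 3 libraries the Hes1 value was 0.13. With all libraries, 7 of the 12 genes were positive. Among relatives of the progenitor genes the smallest p was that of Pdgfrb (log2 fold change -0.13 ± 0.05 SE, edgeR adjusted p = 0.47). Without the 3 libraries rich in vomeronasal receptor reads the log2 fold changes were -0.17 for Pdgfrb, -0.16 for Pik3r1 and 0.09 for Eed. With all libraries Eed was at 0.10.

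**Figure D5:**
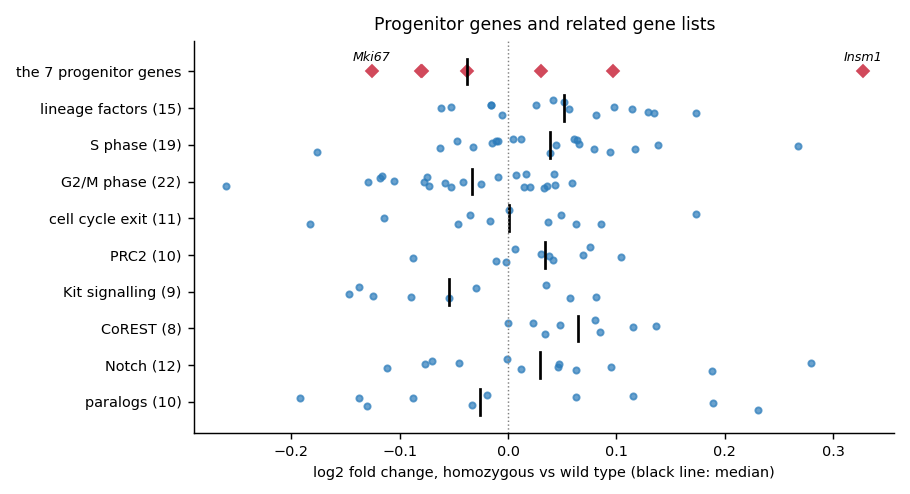
Points are edgeR log2 fold changes between homo and WT mice of the 7 progenitor genes (diamonds) and of the genes of 9 lists (circles; number of genes tested in parentheses), and black lines are medians. Insm1, at 0.33, lies to the right of every gene of the lists, whose medians lie between -0.05 and 0.06.

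Markers of other cells were set beside these results. The summed level of 4 markers of immature neurons (Gap43, Gng8, Stmn2 and Crmp1) was 913 to 926 CPM in WT, 875 to 989 CPM in het and 966 to 992 CPM in homo libraries. Among them Crmp1 had an unadjusted edgeR p under 0.05, at 0.19 ± 0.06 (SE) on the log2 scale between homo and WT mice (edgeR adjusted p = 0.345). The 6 markers of mature neurons (Omp, Gnal, Adcy3, Cnga2, Stoml3 and Ano2) summed to 6928 to 7042 CPM in WT, 7025 to 7521 CPM in het and 7113 to 7718 CPM in homo libraries. Homo and WT libraries did not overlap in this sum, and 15.4% of all genes tested had no overlap between them. Of the 6 markers, Omp (0.12 ± 0.05 SE on the log2 scale, edgeR adjusted p = 0.451) and Gnal (0.07 ± 0.03 SE, edgeR adjusted p = 0.524) had an unadjusted p under 0.05 between homo and WT mice. Adcy3, Cnga2, Stoml3 and Ano2 were at 0.03, 0.03, 0.08 and -0.0094 on the log2 scale, each with overlap. The 4 sustentacular cell markers summed to 3111 to 3251 CPM in WT, 2882 to 3238 CPM in het and 2971 to 3154 CPM in homo libraries. Of these, Sult1c1 alone had such a p, with -0.15 ± 0.05 (SE) on the log2 scale (edgeR adjusted p = 0.425). Without the 3 libraries rich in vomeronasal receptor reads the log2 fold changes were 0.20 for Crmp1, 0.13 for Omp, 0.05 for Gnal and -0.14 for Sult1c1. The part of these cells in the Insm1 difference was not tested. Blood precursors also divide and express Mki67, Top2a and Ezh2. Of their genes Mpo and Elane were at most 0.464 CPM in any library, and Prtn3 was at 3.49 to 6.27 CPM. All 6 myeloid precursor genes together summed to between 273 and 853 CPM, nearly all of it from Ltf, the lactoferrin gene that glands also express. The 4 B cell precursor genes summed to at most 2.28 CPM and the 3 erythroid genes tested to between 6.71 and 26.5 CPM. The haemoglobin genes Hbb-bt, Hbb-bs and Hba-a1 were listed at 0 reads in all libraries. The 4 horizontal basal cell markers summed to 131 to 140 CPM in WT, 106 to 137 CPM in het and 120 to 131 CPM in homo libraries. Of these, Krt14 was at -0.22 ± 0.07 (SE) on the log2 scale between homo and WT mice (edgeR adjusted p = 0.394). It was at -0.19 between het and WT mice. Without the 3 libraries rich in vomeronasal receptor reads Krt14 was at -0.23 between homo and WT mice. Krt5 was at -0.10, Trp63 at 0.09 and Icam1 at -0.35 ± 0.31 (SE) between homo and WT mice. Icam1 ranged from 6.02 CPM in het replicate 3 to 20.9 CPM in het replicate 1. The part of blood precursors and horizontal basal cells in the values of Mki67, Top2a and Ezh2 was not tested.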

How the data were processed

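RNA of whole MOE was made into polyA-selected, strand-specific libraries. Per the labels and methods, the authors trimmed reads with Trimmomatic 0.36, mapped them to mm10 with HISAT2 2.1.0 and deposited raw counts per gene. The counter is named HTSeq 0.6.1p1 in the submitters' processing notes and featureCounts in the methods. The other deposited table, a normalized signal (counts over DESeq2 1.20.0 size factors), served only as a check.

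Groups came from the sample titles. The 20213 genes whose total over all libraries reached 10 counts were TMM-normalized and tested by edgeR's quasi-likelihood test (version 4.0.16, R 4.3.3). All 9 libraries entered 1 fit without covariates. P-values were adjusted by Benjamini-Hochberg over all genes, with a threshold of 0.05. Log2 CPM used a prior count of 2. Correlations and ratios were tested by two-sided exact permutation. Alternatives included DESeq2 1.42.0, other filters and scalings, the replicate block, a vomeronasal covariate and leaving out libraries. The pipeline was tested on simulated counts from 5 random seeds: in each, both tools made more false calls than the nominal rate, and DESeq2 made more than edgeR. DESeq2 exceeded the limit on false calls that had been set for this test in 3 of them, and its calls are reported only as alternatives. The simulated spread was taken from edgeR's own fit to these data.

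The genes and lists were chosen with earlier results of these data known. Named genes are the 7, the 3 most correlated with each, the called or smallest-p gene of each list and the relatives, and some of these are not reported here. Lhx2, Ebf3, Cbl and the single cell type markers were named after their values were seen. Summed list levels are TMM-scaled, and vomeronasal sums use raw library sizes over 338 genes. Intervals and SE of log2 fold changes give the uncertainty of a difference between genotypes. They come from edgeR's fit over all 9 libraries, which shares information on the spread across genes, and reflect these libraries alone.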

Additional observations from a re-analysis of the deposited data

How the results depend on the processing

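The number of progenitor genes called, 0 by edgeR, became 1 (Insm1) between homo and WT mice with DESeq2, at default settings and without independent filtering. Between homo and het mice, and for any difference among genotypes, it became 1 with both DESeq2 settings and without a filter on low counts, and ranged from 0 to 1 when single libraries were left out. The call came from leaving out het replicate 3, where the log2 fold change of Insm1 between homo and het mice was 0.40 (edgeR adjusted p = 0.0196). Without a filter that adjusted p was 0.0497. Over all genes, edgeR called 10, 23 and 13 genes between homo and WT mice, between homo and het mice and for any difference. Without het replicate 3 edgeR called 33, 190 and 70. Between homo and het mice it called 7 without het replicate 1, 11 without WT replicate 2 and 9 without WT replicate 1, het replicate 2 or homo replicate 2. For any difference it called 7 without WT replicate 1 or homo replicate 2 and 8 without het replicate 1, and between homo and WT mice 16 without het replicate 2. DESeq2 at default settings called 65, 122 and 124, and without independent filtering 48, 123 and 92. In simulated counts a larger share of DESeq2's calls than of edgeR's was false. Those counts were drawn with edgeR's own estimates of spread and held larger differences than that of Insm1. They therefore cannot settle how much weight a call by DESeq2 alone carries. The count of list genes called between homo and het mice became 1 (Cbl) with both DESeq2 settings, and ranged from 0 to 2 (Cbl and Pik3r1) when single libraries were left out.

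Between homo and WT mice the Insm1 log2 fold change ranged from 0.28 to 0.40 over left-out libraries, with edgeR adjusted p from 0.0501 to 0.623. It was 0.20 without the 3 libraries rich in vomeronasal receptor reads. Between homo and het mice it was 0.16 without them (edgeR adjusted p = 0.956), a change of over 1.5 times in both cases. Signs turned only where differences were near 0. With the vomeronasal covariate the log2 fold change between het and WT mice turned to 0.0033 for Neurog1 and -0.0079 for Insm1, and that of Neurod1 between homo and WT mice to -0.025. Over left-out libraries, the het to WT values ranged from -0.075 to 0.033 for Neurog1, -0.068 to 0.072 for Insm1, -0.076 to 0.045 for Kit, -0.061 to 0.040 for Ezh2 and -0.0083 to 0.023 for Top2a. The homo to WT values ranged from -0.011 to 0.072 for Neurod1 and -0.088 to 0.013 for Ezh2, and the homo to het value of Neurod1 from -0.088 to 0.00038. The causes were not tested.

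Same-numbered libraries had correlations of their deviations from -0.16 to 0.06 between WT and the other genotypes, and of -0.04, 0.25 and 0.30 between het and homo mice (16167 genes). Not every pair of libraries deviated together, so the samples were not treated as paired. With the replicate block the number of progenitor genes called stayed 0 in every comparison, and Insm1 had a log2 fold change of 0.33 between homo and WT mice (edgeR adjusted p = 0.188).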
